A study of Rattus norvegicus with 18 samples.

Results

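The expression of 6 genes of leukocyte traffic between blood, lymph nodes and tissue was followed in rat peripheral blood mononuclear cells (PBMC). They were Glycam1, a secreted mucin-like glycoprotein, and the chemokine receptors Ccr7, Ccr2, Cxcr4, Cxcr3 and Cx3cr1. All probes whose gene name in the scanner files equals one of these names, ignoring case, were taken, which gave 7 probes for 6 genes, of 41012 probes and 35658 gene names on the array. The genes were selected on earlier diet results of these same arrays, the log2 ratios of the processed signals, so their values by diet are given as a description.

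PBMC came from male Wistar rats, an outbred strain, that were 2 months old when a 4-month feeding period began, and RNA of each animal was hybridised to an Agilent 4x44K array. The high-protein diet (HPD) took 45% of its energy from protein, mainly casein, 45% from carbohydrate and 10% from fat. The high-fat diet (HFD) had 60% fat by energy, with 20% each for protein and carbohydrate. The low-fat control diet (LFD) was mostly carbohydrate (70% of energy), and protein gave 20% and fat 10%. LFD animals ate freely, HPD and HFD animals were given amounts matched to the energy intake of the LFD animals, and all were fasted for 14 h before sacrifice. Each diet had 6 arrays, with the animal's RNA in Cy5 and 1 pool of all animals' RNA in Cy3. One array is called HFD replicate 7 in its title and HPD in its source name, and it was counted as HPD (HPD replicate 7). All levels below are log2 ratios of the animal's processed Cy5 signal over the pool's processed Cy3 signal, so 0 means equal signals. Every animal was in Cy5, so a dye effect of a probe cannot be told apart from its level against the pool.

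Leukocytes leave the blood in steps. Cells are first caught on sulphated and sialylated mucins on high endothelial venules of lymph nodes. A chemokine receptor then reads ligands on the vessel wall and activates integrins. The Glycam1 product is a mucin of this kind, but a secreted one. In PBMC, Ccr7 marks naive and central memory lymphocytes, Cxcr4 is broadly expressed, Cxcr3 marks activated T cells and NK cells, Ccr2 marks classical monocytes, and Cx3cr1 marks non-classical monocytes and cytotoxic lymphocytes. These assignments come mainly from mouse and human work. Glycam1 is best known from high endothelial venules and from milk-producing mammary gland rather than from blood cells.

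Between 53.1% and 63.4% of probes were well above background in Cy5 on each array, and 25207 probes that were so on at least 5 of 18 arrays were tested. Markers of the labelled cells were present, with all 12 T cell, 6 B cell and 10 NK cell markers on the array, and 8 of 11 monocyte markers, well above background on all 18 arrays. Platelet and red cell precursor markers were also well above background on all 18 arrays, for 5 of 5 and 6 of 6 genes on the array. The arrays lay on 5 slides, and slide, with diet in the model, was called for 89 of 25207 probes (0.353%), none of them a member. LFD replicates 6 and 2 had the widest spread of ratios over all probes, with median absolute deviations of 0.618 and 0.580 on the log2 scale, and both are followed below. Over the tested probes, the log2 ratios of 153 pairs of arrays correlated at -0.50 to 0.61 (median 0.15), and the direction of the ratios is that of the dyes in the labels. HFD replicates 1 and 6 were the most alike pair (r 0.61), and they were kept as 2 animals, as labelled.

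All 7 member probes passed the filter on dim probes. No member spot was saturated or marked as an outlier. No probe of the array was called in any diet comparison by limma at an adjusted p under 0.05 (0 of 25207, 0%, for each of HPD against LFD, HPD against HFD and HFD against LFD), so 0 of 7 member probes were called in each. At an unadjusted p under 0.05, limma gave 716 probes (2.84%) for HPD against LFD, 761 (3.02%) for HPD against HFD and 506 (2.01%) for HFD against LFD.

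Sequences are shown for the member with the clearest diet pattern and for the receptors Ccr2 and Cx3cr1. The ratios of these 2 receptors had Spearman rho 0.73 (permutation test, adjusted p 0.0087) and Pearson r 0.58 (permutation test, adjusted p 0.072). The Glycam1 probe A_44_P475564 is placed at chr7:142455707-142455766 of rn4 by the scanner files. The first line below is the 250 bases before the annotated start of Glycam1 (RefSeq, GRCr8, chr7:136561300-136561549, minus strand), and the other two lines give the same window for Ccr2 (chr8:132611953-132612202, plus strand) and Cx3cr1 (chr8:128677067-128677316, minus strand). All are written 5′ to 3′ along the gene, in lower case, with matches to 3 searched motifs in capitals.
Glycam1: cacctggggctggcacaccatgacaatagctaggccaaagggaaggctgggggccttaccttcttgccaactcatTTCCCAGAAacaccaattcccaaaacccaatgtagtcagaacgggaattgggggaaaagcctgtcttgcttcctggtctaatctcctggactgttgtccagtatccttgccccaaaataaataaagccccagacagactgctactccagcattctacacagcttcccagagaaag
Ccr2: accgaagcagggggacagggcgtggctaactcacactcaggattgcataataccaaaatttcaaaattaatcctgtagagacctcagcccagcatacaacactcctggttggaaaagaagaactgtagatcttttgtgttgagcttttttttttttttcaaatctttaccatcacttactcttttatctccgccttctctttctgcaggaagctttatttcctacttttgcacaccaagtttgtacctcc
Cx3cr1: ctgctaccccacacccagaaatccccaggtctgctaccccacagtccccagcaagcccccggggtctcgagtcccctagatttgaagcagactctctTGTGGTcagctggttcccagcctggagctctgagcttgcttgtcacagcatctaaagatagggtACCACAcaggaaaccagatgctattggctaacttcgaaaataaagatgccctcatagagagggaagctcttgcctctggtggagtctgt

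The motifs, searched on both strands and none overlapping another in these windows, were TTCNNNGAA (STAT factors), CCGCCC (KLF and Sp factors) and TGTGGT (RUNX factors). They were chosen after the sequences had been seen, and motifs of NF-kB and of interferon regulatory factors, also looked for, had no match in the windows of the 5 members that have one. Over 33469 RefSeq promoter windows of the same length, 7.67% of them held TTCNNNGAA, 30.5% CCGCCC and 14.5% TGTGGT. The Glycam1 window held 1 TTCNNNGAA match, TTCCCAGAA, from 175 to 167 bases before the start. The Cx3cr1 window held TGTGGT on each strand, and the Ccr2 window held none of the 3 motifs. The Cxcr4 window held CCGCCC at 3 places, and the Cxcr3 window held none of the 3. A match describes letters and is not a binding site, and a missing match says only that the letters are not in the window. Promoter windows were found for 5 of 6 members, and Ccr7 is named only.

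Glycam1 was the member that differed most by diet. Its log2 ratio ran from 0.59 to 1.23 in HPD animals (median 0.72), from -1.05 to 0.24 in HFD animals (median -0.42), and from -1.02 to 0.11 in LFD animals (median -0.60). All 6 HPD animals stood above every HFD and LFD animal, while the HFD and LFD ranges overlapped almost wholly. The share of probes with HPD above all HFD and LFD arrays was 0.012%, 3 of the 25022 probes with a value on every array. For HPD above all LFD arrays alone the share was 0.048%, and for HPD above all HFD arrays alone it was 0.144%. Since Glycam1 was chosen with this pattern known, nothing is read from that count.

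**Figure D1:**
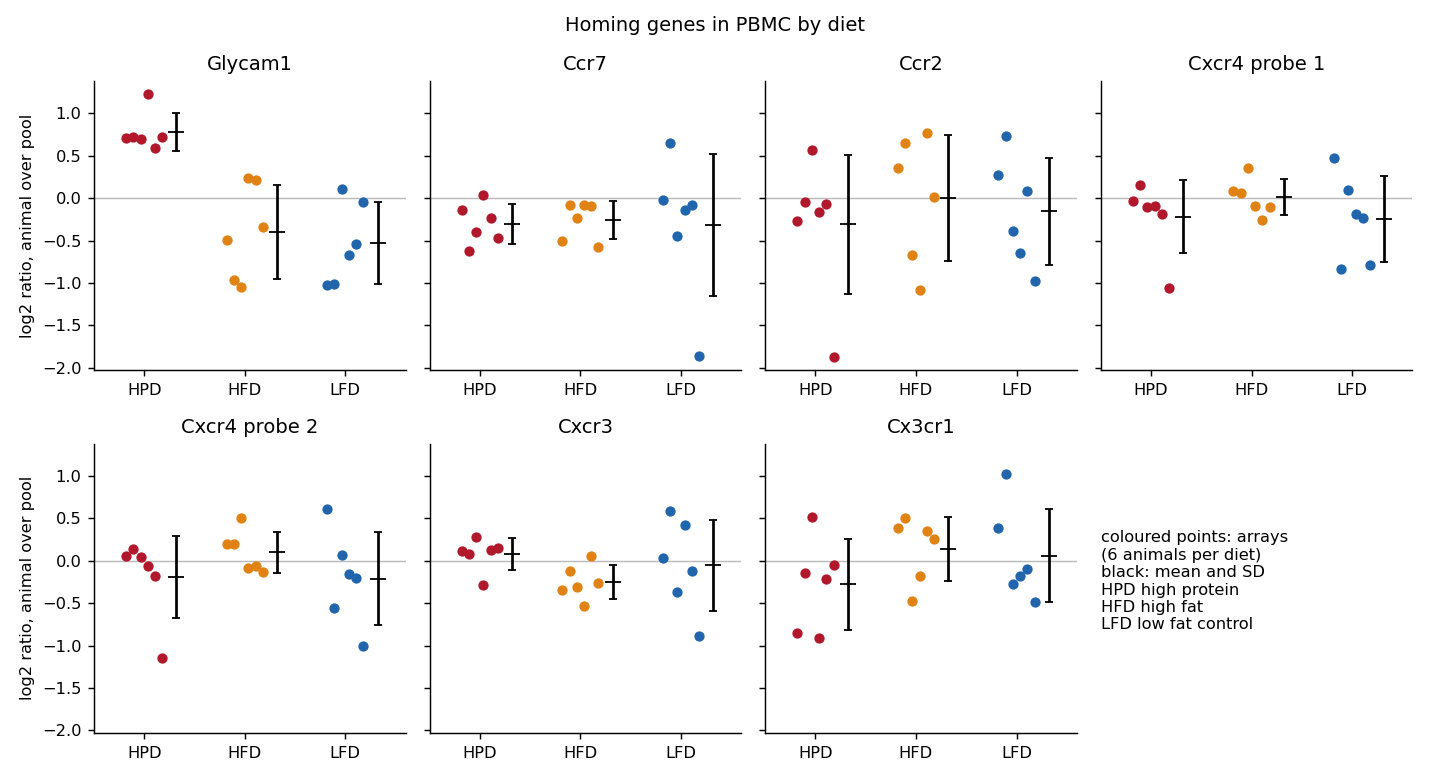
Log2 ratio of animal over pool (y axis) for the 7 member probes by diet (x axis), 1 point per animal, with the mean and SD of 6 animals in black. The 6 HPD points of Glycam1 lie between 0.59 and 1.23, above all HFD and LFD points, and the diets overlap for the other probes.

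The mean log2 ratio of Glycam1 was 0.78 ± 0.22 in HPD, -0.40 ± 0.55 in HFD and -0.53 ± 0.48 in LFD animals (SD, n = 6 each). The HPD minus LFD difference was 1.31 ± 0.24 (SE) on the log2 scale, a 2.48-fold difference, with a limma adjusted p of 0.529. The HPD minus HFD difference was 1.18 ± 0.24, or 2.26-fold, with a limma adjusted p of 0.995. The HFD minus LFD difference was 0.13 ± 0.24. Both HPD differences use the same 6 HPD arrays, so they are not separate measurements. With a fixed slide term the HPD minus LFD difference was 1.40 ± 0.22 and the HPD minus HFD difference 1.27 ± 0.22.

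Within single slides the HPD animals were higher too. Every HPD animal lay above all HFD and LFD animals, so this sign was fixed, and only the sizes are given. On slide 4 the difference between 2 HPD and 2 LFD arrays was 1.57, and on slide 3 that between 1 HPD and 1 LFD array was 0.48. On LFD replicate 4, an array of slide 4, the probe was not well above background in Cy5 or Cy3. On slide 2 the difference between 3 HPD arrays and 1 HFD array was 1.76, and on slide 3 that between 1 HPD and 2 HFD arrays was 0.65. Slide 1, which held no HPD array, had the lowest mean Glycam1 ratio of the 5 slides, -0.87 over 4 arrays. Without slide 1, HPD minus LFD was 1.06 and HPD minus HFD was 1.01.

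The size of the Glycam1 difference depended on the processing. With normexp background correction fitted on all spots, which adds an offset of 50 to each signal, followed by loess normalization within arrays, HPD minus LFD was 0.36 and HPD minus HFD was 0.41. With normexp fitted without marked spots and the same loess, they were 0.41 and 0.43. Background correction, offset and dye normalization changed together here, and their separate parts were not tested. In the authors' deposited table they were 0.65 and 0.60, and its Glycam1 values ran from 6.67 to 7.10 in HPD, 6.02 to 6.61 in HFD and 5.81 to 6.60 in LFD animals, so there too no HPD value overlapped another diet.

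Glycam1 was a dim probe, and its signals show what the ratio is made of. The Cy5 signal ran from 80.5 to 195 in HPD (median 106), from 35.2 to 82.8 in HFD (median 62.6) and from 24.5 to 93.0 in LFD animals (median 44.1). The Cy5 signal alone therefore overlapped, with the lowest HPD array, 80.5, under the highest HFD array at 82.8 and the highest LFD array at 93.0. The Cy3 signal of the pool, the same RNA on every array, itself ran from 34.4 to 128 on HPD arrays, 31.5 to 104 on HFD arrays and 38.9 to 108 on LFD arrays. The probe was well above background in Cy5 on 17 of 18 arrays, the exception being LFD replicate 4, so 5 of 6 LFD arrays measured it.

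**Figure D2:**
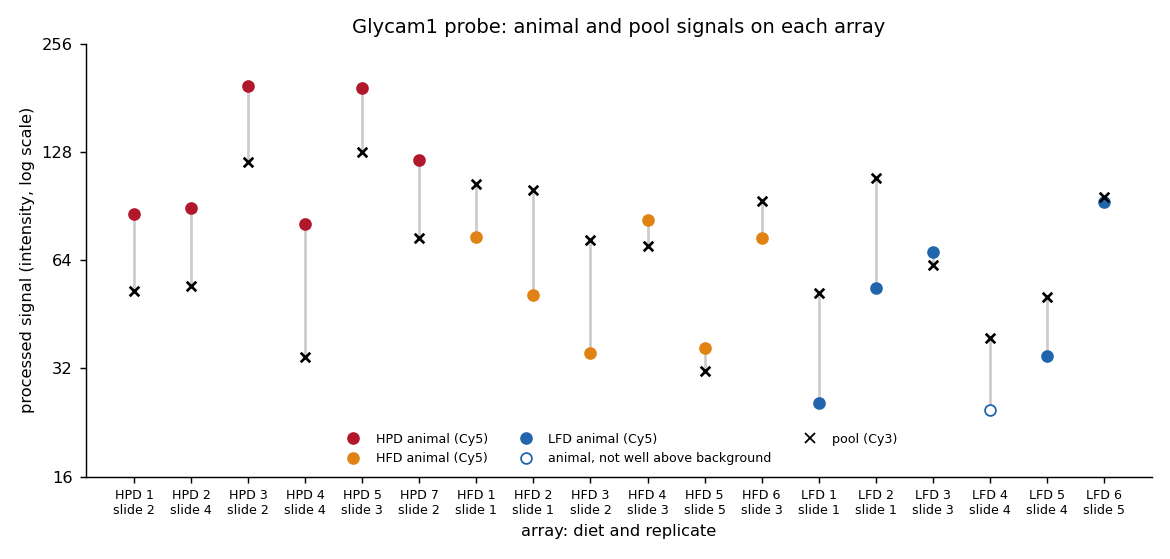
Processed signals of the Glycam1 probe (y axis, intensity, log scale) on each of 18 arrays (x axis), with the animal's Cy5 signal as a circle, open where not well above background, and the pool's Cy3 signal as a cross. Cy5 exceeded Cy3 on all 6 HPD arrays, and the pool's signal varied from 31.5 to 128 between arrays.

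Probes about as dim as Glycam1 were set beside it. Over 6441 tested probes within 1 log2 unit of its mean Cy5 signal, the median log2 ratio per array ran from 0.02 to 0.08 in HPD, from -0.003 to 0.05 in HFD and from 0.01 to 0.11 in LFD animals. These ranges overlap between all diets. The signals were dye-normalized, so a median over many probes lies near 0 on every array. It does not show how far a single dim probe scatters, which was not tested.

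Among 8482 named genes well above background on all 18 arrays, the 3 whose ratios were most like those of Glycam1 were Dlk1 (Pearson r 0.91), Ccl11 (r 0.88) and Kif19 (r 0.87). After slide means were subtracted, r was 0.90, 0.88 and 0.88 for Dlk1, Ccl11 and Kif19. All r are over the same 18 arrays, which share 1 pool. Dlk1, a membrane protein of the Notch ligand family known from preadipocytes, had log2 ratios from -0.02 to 1.18 in HPD, -1.74 to -0.16 in HFD and -2.06 to 0.50 in LFD animals. Ccl11, the eosinophil attractant eotaxin, ran from 0.29 to 1.14 in HPD, -1.40 to 0.75 in HFD and -2.08 to 0.63 in LFD animals. Kif19, a microtubule motor of cilia, ran from -0.18 to 1.21 in HPD, -1.30 to 0.30 in HFD and -2.10 to 0.32 in LFD animals. For all 3 genes the highest LFD animal was replicate 6, which lay above the lowest HPD animal, and for Dlk1 LFD replicate 3 did so too. Whether a shared source lies behind these ratios was not tested.

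**Figure D3:**
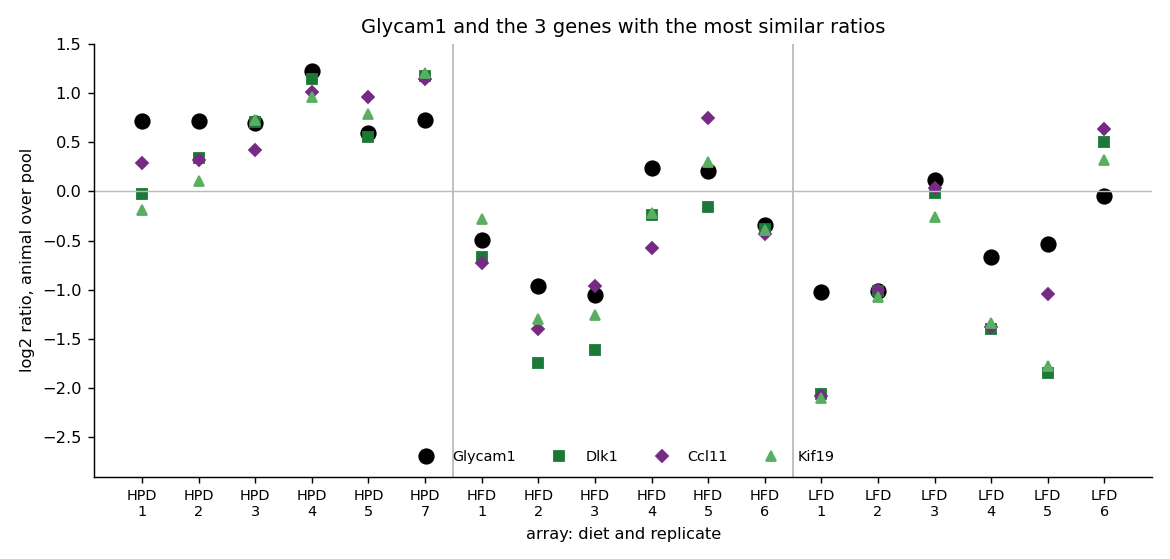
Log2 ratio of animal over pool (y axis) of Glycam1, Dlk1, Ccl11 and Kif19 on each array (x axis), with diets separated by vertical lines. The 4 genes move together over the arrays, and LFD replicates 3 and 6 lie above the other LFD arrays.

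Markers of the tissues best known for Glycam1 were only partly detected. Of 10 endothelial and high endothelial venule markers on the array, 5 (Tek, Emcn, Sele, Madcam1 and Chst4) were well above background on no array. The 5 tested were Kdr, Vwf and Esam, well above background on 18 arrays each, Cdh5 on 16 and Tie1 on 13. The part of platelet RNA in their values was not tested. The mean log2 ratio of the 5 tested ones ran from -0.70 to 0.03 in HPD, -0.82 to 0.24 in HFD and -0.38 to 0.32 in LFD animals, and their summed Cy5 signal from 4115 to 9184 in HPD, 4373 to 13878 in HFD and 5823 to 23137 in LFD animals. Of 8 mammary gland markers, 4 were tested, and Lalba and Btn1a1 were well above background on no array. Among the 4 tested, Csn2 was well above background on 18 arrays, Csn1s2a and Wap on 14 each and Csn1s1 on 6. The mean log2 ratio of those 4 ran from -1.53 to 0.79 in HPD, -1.21 to 1.13 in HFD and -0.72 to 0.81 in LFD animals, and their summed Cy5 signal from 195 to 478 in HPD, 184 to 391 in HFD and 238 to 407 in LFD animals. All these ranges overlapped between diets.

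Ccr7, the receptor that brings naive T cells and dendritic cells into lymph nodes, was read by probe A_44_P552514 (chr10:87925806-87925865, rn4). Its log2 ratio ran from -0.62 to 0.04 in HPD (median -0.32), -0.58 to -0.08 in HFD (median -0.16) and -1.87 to 0.65 in LFD animals (median -0.11). The diets overlapped, and both extremes were LFD animals, replicate 6 at the bottom and replicate 2 at the top. HPD minus LFD was 0.01 ± 0.28 (SE), with a 95% interval of -0.59 to 0.62, and HPD minus HFD was -0.04 ± 0.28.

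Ccr7 followed the T cell list, the mean log2 ratio of 12 T cell markers. Pearson r over 18 animals was 0.67 (permutation p 0.00064, adjusted p 0.012 over 56 relations of member probes with blood cell lists) and Spearman rho was 0.81 (permutation p 0.00011, adjusted p 0.0062). Without the 2 arrays farthest from the median of the T cell list, HFD replicates 1 and 6, r was 0.73, and with slide means subtracted it was 0.70. In bulk RNA, fewer cells of a type and less RNA per cell cannot be told apart. The most similar genes were Apbb3 (r 0.97), Plcg1 (r 0.95), a phospholipase of T cell receptor signalling, and Sting1 (r 0.95), a sensor adaptor for cytosolic DNA. Their Spearman rho was lower, at 0.83, 0.87 and 0.81. The lowest LFD values of Apbb3, Plcg1 and Sting1, -1.85, -2.30 and -2.17, lay below all their HPD and HFD values. How far these r rest on the lowest array was not tested.

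Ccr2, the receptor for Ccl2 that takes classical monocytes out of the marrow, was read by probe A_43_P15552 (chr8:128893805-128893864, rn4), a dim probe with Cy5 signals of 14.9 to 133. Its log2 ratio ran from -1.87 to 0.56 in HPD (median -0.12), -1.08 to 0.77 in HFD (median 0.18) and -0.98 to 0.73 in LFD animals (median -0.16). The diets overlapped, and the lowest value belonged to HPD replicate 7, the only array where the probe was not well above background in Cy5. The HPD minus LFD difference was -0.15 ± 0.40 (SE) and became 0.16 ± 0.35 without HPD replicate 7. HPD minus HFD was -0.32 ± 0.40 and became -0.003 ± 0.35 without it.

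Markers of monocytes, which carry Ccr2, were read beside it, and limma called none of them in a diet comparison. Their mean log2 ratio over 9 tested markers ran from -1.49 to 0.41 in HPD, -0.49 to 0.92 in HFD and -0.52 to 0.39 in LFD animals, and their summed Cy5 signal from 25518 to 72687 in HPD, 40391 to 151723 in HFD and 42194 to 103258 in LFD animals. The median log2 difference of the 9 markers was -0.40 for HPD against LFD and -0.41 for HPD against HFD, against 0.02 for each over all 21594 genes tested. The diets overlapped, and at an unadjusted p under 0.05 limma gave 0 of 9 markers for HPD against LFD and 2 of 9 for HPD against HFD. Over all 21594 genes tested, limma gave 642 and 668 in these comparisons. Other lists had medians below 0 as well, with no gene called. For 6 red cell precursor genes the medians were -0.75 for HPD against LFD and -0.56 for HPD against HFD. For 5 platelet genes they were -0.56 and -0.18. All of these red cell precursor and platelet genes were below 0 in both comparisons, against 9712 and 9835 of all 21594 genes tested. Cd163 and Msr1 of this list were well above background on no array. Ccr2 and the monocyte list had r 0.36 (permutation p 0.14, adjusted p 0.41) and rho 0.45 (permutation p 0.059, adjusted p 0.28) over 18 animals, and the part of monocyte number in the Ccr2 ratios was not tested. The genes most like Ccr2 were Sec61a1 (r 0.79), Prkra (r 0.78) and Fkbp2 (r 0.77), of which Sec61a1 and Fkbp2 act in the endoplasmic reticulum.

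Cxcr4, the receptor for Cxcl12 that holds leukocytes in marrow and lymphoid tissue, was read by 2 probes, the first at chr13:41308900-41308959 and the second at chr13:41309106-41309165 (rn4). The 2 probes gave the same picture over the animals, with Pearson r 0.97 and Spearman rho 0.94 over 18 animals (permutation p 1e-05 for each, the smallest that 100000 permutations can give, and adjusted p 0.00021). The first probe, A_44_P425580, ran from -1.06 to 0.16 in HPD (median -0.10), -0.26 to 0.36 in HFD (median -0.01) and -0.84 to 0.47 in LFD animals (median -0.21). The second, A_43_P12159, ran from -1.14 to 0.14 in HPD (median -0.01), -0.13 to 0.50 in HFD (median 0.07) and -1.01 to 0.61 in LFD animals (median -0.18).

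The low Cxcr4 values were single animals in both probes, HPD replicate 7 in one diet and LFD replicates 2 and 6 in another, and the diets overlapped. HPD minus HFD was -0.23 ± 0.22 (SE) by the first probe and -0.29 ± 0.25 by the second, and became -0.06 ± 0.20 and -0.10 ± 0.21 without HPD replicate 7. HPD minus LFD was 0.03 ± 0.22 and 0.02 ± 0.25, and HFD minus LFD was 0.25 ± 0.22 and 0.31 ± 0.25 by the first and second probe. The most similar genes were Yrdc (r 0.93), a tRNA modification enzyme, Klf6 (r 0.89), a zinc finger transcription factor, and Btbd7 (r 0.88). Neither probe was related to a blood cell list at an adjusted p under 0.05.

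Cxcr3, the receptor for the interferon-induced chemokines Cxcl9, Cxcl10 and Cxcl11, was read by probe A_44_P404843 (chrX:89794887-89794946, rn4). Its log2 ratio ran from -0.28 to 0.28 in HPD (median 0.12), -0.53 to 0.06 in HFD (median -0.29) and -0.89 to 0.59 in LFD animals (median -0.04). Of 6 HPD animals, 5 lay above the highest HFD animal, and HPD replicate 4 did not. HPD minus HFD was 0.33 ± 0.20 (SE), with a 95% interval of -0.09 to 0.75 and a limma adjusted p of 0.995. For HPD minus LFD the difference was 0.13 ± 0.20 and became -0.03 ± 0.16 without LFD replicate 6, the lowest of all animals. HFD minus LFD was -0.20 ± 0.20 and became -0.36 ± 0.16 without it. The most similar genes were Tymp (r 0.87), thymidine phosphorylase, Ifi44 (r 0.83), an interferon-induced gene, and Med20 (r 0.82), a subunit of Mediator.

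Cx3cr1, the receptor for fractalkine, was read by probe A_44_P372587 (chr8:125034092-125034151, rn4). Its log2 ratio ran from -0.91 to 0.52 in HPD (median -0.18), -0.47 to 0.50 in HFD (median 0.30) and -0.49 to 1.02 in LFD animals (median -0.14). The diets overlapped, with HPD replicates 4 and 1 the lowest animals and LFD replicate 2 the highest. HPD minus HFD was -0.41 ± 0.27 (SE), with a 95% interval of -0.99 to 0.17, and HPD minus LFD was -0.34 ± 0.27, with an interval of -0.92 to 0.24. With a fixed slide term these differences were -0.11 ± 0.30 and -0.09 ± 0.30, and the differences within slides went both ways. For HPD minus HFD they were 0.35 on slide 2 (3 HPD arrays and 1 HFD array) and -0.26 on slide 3 (1 and 2 arrays). For HPD minus LFD they were 0.05 on slide 3 (1 array each) and -0.39 on slide 4 (2 arrays each).

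**Figure D4:**
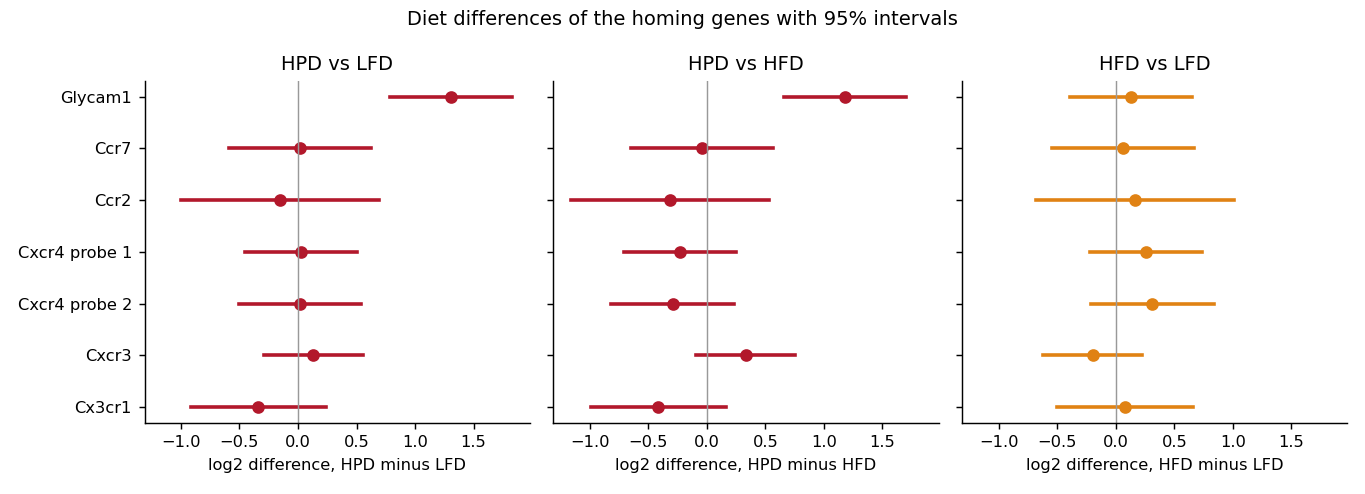
Log2 differences between diets (x axis) for the 7 member probes (y axis). The panels are HPD minus LFD, HPD minus HFD and HFD minus LFD. Points are limma's estimates, and lines are 95% intervals from limma's SE on 15 residual degrees of freedom. Only Glycam1 has intervals that leave out 0, at 0.79 to 1.83 for HPD minus LFD and 0.66 to 1.70 for HPD minus HFD, and it was chosen with that known.

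Cx3cr1 followed the NK cell list and the non-classical monocyte list. With the mean of 10 NK cell markers Pearson r was 0.78 (permutation p 0.00015, adjusted p 0.0053) and Spearman rho was 0.73 (permutation p 0.0010, adjusted p 0.020). Without the 2 arrays farthest from the list's median, LFD replicates 1 and 5, r was 0.84, and with slide means subtracted it was 0.63. With the mean of 4 non-classical monocyte markers r was 0.78 (permutation p 0.00019, adjusted p 0.0053) and rho 0.73 (permutation p 0.0010, adjusted p 0.020). Without HFD replicate 1 and HPD replicate 4 that r was 0.73, and with slide means subtracted it was 0.75. Of the 56 relations, 3 had a Pearson adjusted p under 0.05, that of Ccr7 with the T cell list and these 2 of Cx3cr1. Cx3cr1 also had r 0.59 with the B cell list (permutation p 0.010, adjusted p 0.14). With the monocyte list its r was 0.56 (permutation p 0.017, adjusted p 0.16). Glycam1 had r -0.57 with the NK cell list (permutation p 0.013, adjusted p 0.14). With red cell precursors its r was -0.53 (permutation p 0.024, adjusted p 0.20). After slide means were subtracted, these r of Glycam1 were -0.33 and -0.29.

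The genes most like Cx3cr1 were Cyria (r 0.93), a regulator of Rac1, Spn (r 0.91), the sialomucin CD43, and Id2 (r 0.90), a transcriptional regulator needed for NK cells in mice. Spn is also on the non-classical monocyte list, and with the 3 other genes of that list r was 0.70 and rho 0.70. The NK cell list had 9 of 10 genes below 0 in HPD minus HFD and in HPD minus LFD, with medians of -0.25 and -0.20 and none called. Over all 21594 genes tested, 9835 were below 0 in HPD minus HFD and 9712 in HPD minus LFD. The part of NK cell or monocyte number in the Cx3cr1 ratios was not tested.

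**Figure D5:**
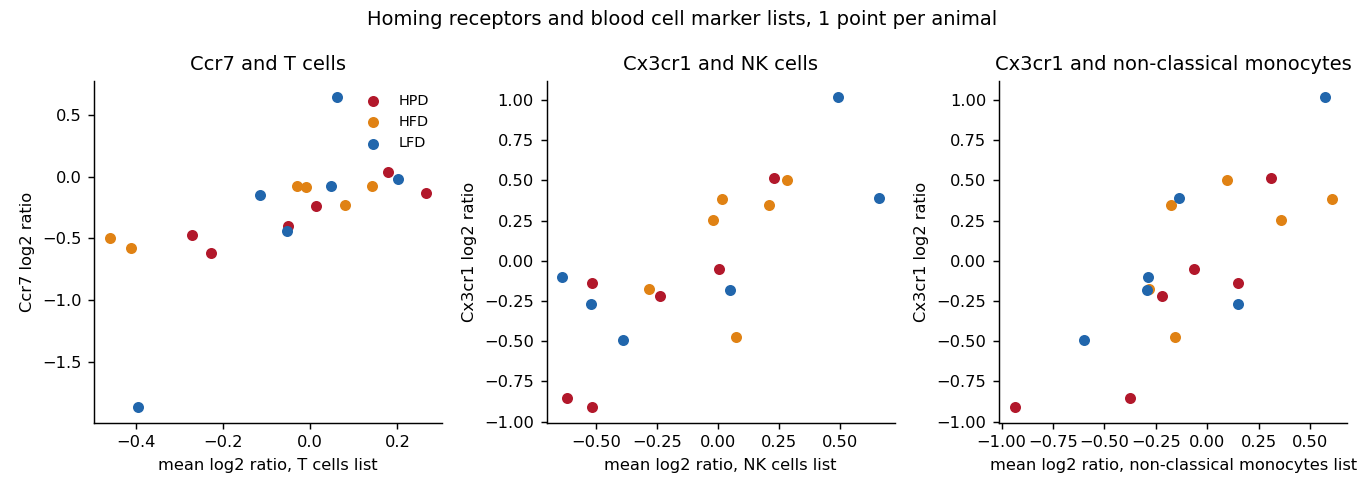
Log2 ratio of Ccr7 or Cx3cr1 (y axes) against the mean log2 ratio of a blood cell marker list (x axes), 1 point per animal, coloured by diet. Ccr7 rises with the T cell list (r 0.67), and Cx3cr1 rises with the NK cell list and the non-classical monocyte list (r 0.78 for each).

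Among the members themselves, 21 pairs of probes were compared. Only the 2 Cxcr4 probes had a Pearson adjusted p under 0.05. Ccr2 and Cx3cr1 had rho 0.73 (permutation p 0.00083, adjusted p 0.0087) with r 0.58 (permutation p 0.010, adjusted p 0.072). Without the 2 arrays farthest from the median of Ccr2, HFD replicate 4 and HPD replicate 7, r was 0.78, and with slide means subtracted it was 0.41. Ccr7 and Cxcr3 had r 0.64 (permutation p 0.0056, adjusted p 0.058) and rho 0.20 (permutation p 0.42, adjusted p 0.64). That r was -0.01 without the 2 arrays farthest from the median of Ccr7, LFD replicates 2 and 6, so that relation rests on those animals. Glycam1 with Cx3cr1 had r -0.50 (permutation p 0.033, adjusted p 0.17) and rho -0.36 (permutation p 0.15, adjusted p 0.57). With slide means subtracted, that r was -0.16.

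Around the members, 81 other genes of leukocyte traffic were listed, of which 74 were on the array and 55 were tested. None was called by limma in any diet comparison, and at an unadjusted p under 0.05 there were 2 (3.64%) for HPD against LFD, 1 (1.82%) for HPD against HFD and 2 (3.64%) for HFD against LFD. These shares are near those of all probes, 2.84%, 3.02% and 2.01%, so the genes named below are given for their values and not as changes. The median log2 difference of the 55 genes was -0.07 for HPD minus LFD, -0.12 for HPD minus HFD and 0.02 for HFD minus LFD, against 0.02, 0.02 and 0.001 over all genes tested. In HPD minus HFD, 12 of 14 integrin genes and 13 of 17 egress and signalling genes were below 0, with no gene called, against 9835 of all 21594 genes tested. In that comparison 9 of 9 monocyte, 6 of 6 red cell precursor, 5 of 5 platelet and 9 of 10 NK cell markers were also below 0, and their part in these counts was not tested.

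Of the ligands of the members, 4 of 10 were tested, and the lymph node ligands Ccl19 and Ccl21 were well above background on no array. Ccl2, the main ligand of Ccr2, had log2 ratios from -3.26 to 0.91 in HPD (median -1.45), -1.34 to 0.71 in HFD (median 0.26) and -0.72 to 1.92 in LFD animals (median 0.38). HPD minus LFD was -1.66 ± 0.57 (SE; unadjusted p 0.0090, limma adjusted p 1.00) and HPD minus HFD was -1.39 ± 0.57 (unadjusted p 0.024, limma adjusted p 0.995). The diets overlapped, and the monocyte, platelet and red cell precursor values given above stand beside these differences, whose relation to them was not tested.

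Of the egress receptors, S1pr4, a sphingosine 1-phosphate receptor of lymphocytes, ran from -0.91 to -0.23 in HPD (median -0.56), -0.96 to -0.09 in HFD (median -0.61) and -0.38 to 0.22 in LFD animals (median -0.15). HPD minus LFD was -0.44 ± 0.15 (SE; unadjusted p 0.011) and HFD minus LFD was -0.45 ± 0.15 (unadjusted p 0.0094), both with a limma adjusted p of 1.00, and both use the same 6 LFD arrays. S1pr5, its relative on NK cells, had an HPD minus LFD difference of -0.47 ± 0.24. The mean log2 ratio of S1pr2 was 0.08 in HPD, -0.15 in HFD and -0.02 in LFD animals. S1pr1 was well above background on no array.

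Of the adhesion genes, Vcam1, the vascular ligand of the integrin VLA-4, ran from -0.52 to 1.22 in HPD, -0.11 to 0.81 in HFD and -1.59 to 0.41 in LFD animals, with Cy5 well above background on 3 of 6 LFD arrays. HFD minus LFD was 0.77 ± 0.34 (SE; unadjusted p 0.037, limma adjusted p 1.00).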

How the data were processed

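Per the labels, RNA of each animal was labelled with Cy5 and hybridised against a Cy3 pool on 2-colour arrays. The authors deposited scanner files made with Agilent Feature Extraction 10.5.1.1, whose processed signals are intensities that are background-subtracted, spatially detrended and dye-normalized, per the file headers. They also deposited a table of log2 values for 21530 spots with all column medians at 8.40; its centred values correlate at 0.885 with the processed log2 ratios, and its exact processing and centring are not given in the sources used here. Probe positions are rn4, per the file headers.

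From the processed intensities, log2(Cy5/Cy3) was taken per spot, spots marked as outliers were left out, and spots of a probe were averaged. A probe entered the fit when at least 5 of 18 arrays had it well above background in Cy5, and these 25207 probes were fitted with limma 3.58.1 in R 4.3.3 on the means of the 3 diets (6 arrays each), with Benjamini-Hochberg adjustment over all of them and a threshold of 0.05. Intervals are 95%, from limma's SE on 15 residual degrees of freedom, while limma's own tests use moderated degrees of freedom. Slide was tested with diet in the model. The fit was tested on simulated data. Correlations used permutation tests with 100000 resamples, two-sided, in Python 3.11.15 with SciPy 1.17.1. The number of arrays limits the precision.

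Members were all probes of the 6 names. Other traffic genes were named by the smallest p in each direction, at most 2 per list and comparison, of which the text gives some, chosen after their values were seen. Likest genes were the 3 with the highest Pearson r. The members, lists and tests were chosen with earlier results of these data known. Gene names were updated through RefSeq (19556 of 41012 probes matched), and promoter windows came from RefSeq, GRCr8. Replicate numbers mark separate animals and were not used as pairs. Alternatives were background correction with loess, the authors' table, Cy5 alone, scaling, filters, slide, array weights, the conflicting label and leaving out each array.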

Additional observations from a re-analysis of the deposited data

Results flagged for a closer look

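Within the 21 sets of 6 arrays (7 member probes in 3 diets), 5 held an array whose gap to its nearest neighbour was, as a share of the whole range, above Dixon's critical value; chance gives about 1 in 20. Glycam1 in HPD replicate 4 had a log2 ratio of 1.23, with the next HPD array at 0.72. Cxcr3 in the same animal was -0.28, with the next HPD array at 0.09. Ccr2 in HPD replicate 7 was -1.87, with the next at -0.27, and its Cy5 signal was not well above background there. Cxcr4 in HPD replicate 7 was -1.06 by one probe and -1.14 by the other, with the next HPD arrays at -0.18 for both. HPD replicate 7 is the array whose title calls it HFD.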

How the results depend on the processing

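Glycam1 kept a positive HPD minus LFD and HPD minus HFD difference under all 32 alternatives that gave it a value, with ranges of 0.36 to 1.48 and 0.41 to 1.31, and it had no value when only probes well above background on all 18 arrays were kept. Over all members, the sign of a difference changed in 27 of 306 values under other processing and in 21 of 378 with 1 array left out, and no member probe was called under any alternative. With the array of conflicting labels counted as HFD, the Glycam1 HPD minus HFD difference was 1.03.

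No probe was called for HFD against LFD, HPD against HFD or any diet under any alternative. For HPD against LFD, 2 probes were called with array weights and 0 to 1 with 1 array left out, the 1 without LFD replicate 2. The number of probes called for slide was unstable. Against 89, it was 834 with normexp on all spots and loess, 888 with normexp without marked spots and loess, 2042 in the authors' deposited table, 165 with Cy5 alone, 8 with no filter, 262 with probes well above background on all 18 arrays, 44 with the brightest probe of each name, 260 with the conflicting array as HFD, and 0 each with array weights, with HFD replicates 1 and 6, the most alike arrays, averaged and with the replicate block. With 1 array left out it was 0 to 3168, 3168 being without HFD replicate 5, 1 of 2 arrays of its slide. The causes were not tested.

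Deviations of arrays with the same number correlated at -0.32 to 0.23, with 6 of 16 pairs over 0.1. Such deviations were not compared for arrays with different numbers, so these values do not show whether the numbers pair the samples. The replicate block changed no diet call, and with it Glycam1 differed by 1.37 for HPD minus LFD. Dim probes such as Glycam1 and Ccr2 are limited by signal over background.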
